A study of Nothobranchius furzeri with 19 samples.

Results

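The 200 genes described here were chosen for their level in the adult ovary of the turquoise killifish (*Nothobranchius furzeri*), out of 26740 genes counted by RNA-seq. They were selected on measured levels, namely the ovary, testis and early values described next. Expression was given as CPM, that is, counts scaled to the same library total. A gene qualified with at least 50 raw counts in the ovary, an ovary level at least 3 above the testis on the scale of log2(CPM + 1), and an ovary level at least 2 above the highest of the 6 early groups. In all, 389 genes passed, and the 200 with the largest value of the smaller of both differences were taken. All fish were of the strain GRZ and no group was treated. Whole embryos were sampled at 10 days post fertilization (dpf), with 3 female and 3 male libraries. Trunks were taken at hatching, here called 0 dph for days post hatching, with 2 female and 3 male libraries, and at 3 dph, with 3 of each sex. The gonads came from fish of 3 months, with 1 ovary and 1 testis library.

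Growing oocytes store large amounts of maternal RNA and protein that the early embryo uses before its own genome becomes active. In fish, they also take up yolk, build the egg envelope and lay down an axis with an animal and a vegetal pole. An adult fish ovary holds oocytes of many stages together with follicle cells, whereas the trunk of a larva holds a small gonad among muscle, liver, gut, skin and blood. In such bulk samples, fewer cells of a type and less RNA per cell cannot be told apart.

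Total counts per library ranged from 15563687 to 20218857 at 10 dpf and 0 dph and from 25600939 to 31493908 at 3 dph, and were 25875516 in the ovary and 11717979 in the testis. At 0 dph, the female libraries stood apart from each other: on the first principal component, which took 71% of the variance, female replicate 1 lay at -79.1, female replicate 2 at -1.04 and the males between 25.4 and 29.3. At 10 dpf, male replicate 1 lay at 58.8 and the other libraries between -38 and 3.09. The labels do not say that replicates came from separate animals, so the p-values measure the spread between these libraries, which may be technical. Of 18 genes listed for testis and sperm, 17 were lower in the ovary than in the testis library, and of 7 genes listed for oocytes and eggs that were not among the 200, 5 were higher in the ovary.

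Only 15 of the 200 genes could be given a gene symbol, which is the name of the orthologue in another species, and 1 more had a clone name. The others are named by their annotation identifier. In the ovary, the 200 genes took 6.55% of all counts (95% Wilson interval 6.54 to 6.56%, which covers counting error only), and in the testis 0.0621% (0.0607 to 0.0636%). Single genes reached between 7.96 and 4080 CPM in the ovary, with a median of 117 CPM. There, 105 genes were at 100 CPM or more and 16 at 1000 CPM or more, and 17 were among the 100 most abundant genes of that library. In the testis, the highest gene had 385 counts, 38 genes had 1 to 3 counts and 16 had 0. These levels chose the genes and are given as a description.

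For 190 of the 200 genes, the smaller difference was that to the early stages and not that to the testis. The highest early group was females at 3 dph for 162 genes. The ovary level was 6.18 to 462 times the mean of the 3 dph females, with a median of 10.3 times, and it was under 10 times for 93 genes. The last gene inside the list, Nfu_g_1_008791, had a smaller difference of 2.623 on the log2 scale, and the first outside, Nfu_g_1_023217, had 2.622, so that the list has no natural end at 200 genes.

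The 6 most abundant of the 200 genes in the ovary were Nfu_g_1_017807 with 105700 counts, Nfu_g_1_016917 with 94753, Nfu_g_1_008538 with 86644, Nfu_g_1_004140 with 82481, *ace* (Nfu_g_1_017409) with 67509 and Nfu_g_1_015063 with 66354. Their testis counts were 33, 11, 29, 272, 55 and 16, in the same order. *ace* encodes the angiotensin-converting enzyme, a peptidase at the cell surface that processes small peptides. Nfu_g_1_017807 was the 14th most abundant of all genes in the ovary.

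First in the ranking was Nfu_g_1_008353, with 17821 counts in the ovary and 27 in the testis, a ratio of 299 in CPM (counting interval 205 to 454). Its level was low in both sexes at each early stage, with 1.03 to 3.53 CPM over the 17 early libraries. The next genes were Nfu_g_1_006373 with 16876 and 8 counts in ovary and testis, Nfu_g_1_004601 with 8312 and 1, and Nfu_g_1_021047 with 14810 and 13. For Nfu_g_1_004601, the ratio was 3760, with a counting interval of 675 to 149000 since the testis had a single count.

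By the rule, every gene lay well below its ovary level in the testis and in all early groups. The low testis and early sums beside the ovary follow from this and are given as a description. Summed over the 200 genes, expression was low at 10 dpf in both sexes, and it was higher in 3 dph females than in any other early group. The sum was 536, 573 and 574 CPM in the 10 dpf females and 478, 592 and 750 CPM in the 10 dpf males. At 0 dph, it was 501, 517 and 590 CPM in males, 626 CPM in female replicate 2 and 2430 CPM in female replicate 1. At 3 dph, it was 620, 635 and 642 CPM in males and 7010, 7370 and 8070 CPM in females. The ovary reached 65500 CPM and the testis 621 CPM. Thus, the sums of both sexes did not overlap at 3 dph, where the female mean of 7480 ± 539 CPM (SD, n = 3) was 11.8 times the male mean of 632 ± 11.2 CPM (SD, n = 3), and the testis lay at the level of the male trunks. The 10 of the genes most abundant in each library, which can differ between libraries, made up 43.5 to 44.4% of the sum in 3 dph females and 39.7% in the ovary.

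**Figure D1:**
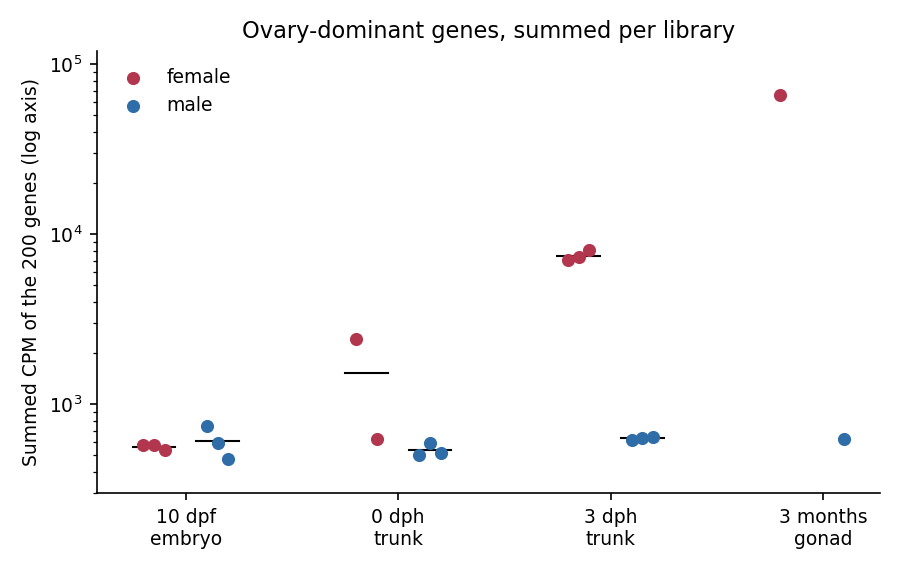
Summed CPM of the 200 ovary-dominant genes in each library (log axis) by stage and sex. Each point is 1 library and the bars are group means. The rule that chose the genes held the testis and early levels below the ovary level. The 3 dph females lie between 7010 and 8070 CPM, the 3 dph males between 620 and 642 CPM, and at 0 dph the 2 female libraries lie far apart, at 626 and 2430 CPM.

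The number of genes at a mean of 1 CPM or more rose with stage in females and stayed nearly level in males. At 0 dph, the female number rested mostly on replicate 1. A mean of at least 1 CPM was reached by 77 of the 200 genes in 10 dpf females and by 80 in 10 dpf males, by 148 in 0 dph females and 78 in 0 dph males, and by 179 in 3 dph females and 86 in 3 dph males. All libraries of a group were at or under 3 counts for 49 genes in 10 dpf females, 45 in 10 dpf males, 7 in 0 dph females, 52 in 0 dph males, 1 in 3 dph females and 18 in 3 dph males. In single 0 dph libraries, 161 genes reached 1 CPM in female replicate 1, 89 in female replicate 2 and 72 to 82 in males. Genes at or under 3 counts numbered 7 in female replicate 1, 50 in female replicate 2 and 57 to 72 in males. The shares over all genes were not computed for these counts. The 3 dph libraries were deeper than those of the earlier stages, so these counts do not rest on equal depth. The 10 dpf libraries also came from whole embryos and the later ones from trunks.

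The sex difference within a stage was not itself used to choose the genes, and it was tested with DESeq2 over all genes of the stage. However, the rule used the group means behind it, as a ceiling below the ovary level. The tests between the sexes and between 0 and 3 dph are therefore not independent of the choice. At 3 dph, 157 of the 200 genes were female-higher at a Benjamini-Hochberg adjusted p under 0.05 and 0 were male-higher. Of all 21772 genes with an adjusted p at this stage, 13.7% were female-higher and 5.19% male-higher. An adjusted p was given for 195 of the 200 genes, and the log2 fold change of females over males had a median of 3.30, or 3.22 with groups at or under 3 counts set to that floor, against -0.08 over all genes tested. Since a gene could pass the filter through the female group alone, the share of the full list, 78.5%, is the more cautious figure. At an unadjusted p under 0.05, 1 gene was male-higher in DESeq2 and 1 in edgeR, and edgeR likewise called 157 and 0. Without male replicate 2, DESeq2 called 156 genes female-higher and 2 male-higher. Every female library lay above every male library for 171 of the 200 genes, compared with 23.0% of all genes tested.

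The size of the difference at 3 dph ranged widely. Among the 157 female-higher genes, the log2 fold change ran from 0.49 to 9.01 with a median of 4.0, and it was at least 4-fold for 122, at least 10-fold for 96 and at least 100-fold for 36 genes by the fitted values. For 13 of them, all male libraries were at or under 3 counts, so the fitted fold depends on the model. The median level of the 157 genes was 13.5 CPM in females and 0.575 CPM in males. All 16 genes at 1000 CPM or more in the ovary, 83 of the 89 genes from 100 to 1000 CPM and 58 of the 95 genes under 100 CPM were female-higher at 3 dph. The share over all genes was not computed for these bands. Since the rule held trunk levels below the ovary level, genes low in the ovary also had low trunk counts, where a difference is harder to call. These counts therefore do not show a link between ovary level and sex difference.

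The 5 female-higher genes with the smallest adjusted p at 3 dph were all under 2 CPM in every male trunk. Nfu_g_1_017807 was at 432, 465 and 505 CPM in females and at 1.41, 1.56 and 1.25 CPM in males. Nfu_g_1_008538 was at 358, 390 and 412 CPM in females and at 0.995, 1.11 and 1.25 CPM in males. Nfu_g_1_010948 was at 242, 248 and 227 CPM in females and at 0.584, 0.889 and 0.703 CPM in males. No male library came near a female one for any of these 3 genes. Their log2 fold changes were 8.34 ± 0.20 (SE), 8.41 ± 0.21 and 8.32 ± 0.22, and DESeq2 gave the adjusted p of each as 0, that is, below the smallest number the software can hold. Nfu_g_1_016917 was at 579, 446 and 541 CPM in females and at 1.13, 0.762 and 1.09 CPM in males, a log2 fold change of 9.01 ± 0.25 (adjusted p = 2.96e-283, DESeq2). *ace* was at 280, 384 and 394 CPM in females and at 1.30, 1.68 and 1.48 CPM in males, a log2 fold change of 7.85 ± 0.22 (adjusted p = 1.23e-274, DESeq2).

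The remaining members of the 6 most abundant in the ovary had a male level well above zero. Nfu_g_1_004140 was at 374, 465 and 496 CPM in 3 dph females and at 37.9, 53.2 and 42 CPM in males (log2 fold change 3.30 ± 0.18, adjusted p = 4.23e-77, DESeq2). Nfu_g_1_015063 was at 268, 295 and 319 CPM in females and at 38.7, 43.8 and 43 CPM in males (2.78 ± 0.14, adjusted p = 2.46e-80). Neither overlapped between the sexes.

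The genes next after the first in the ranking were also female-higher at 3 dph. Nfu_g_1_006373 was at 5.22, 14.3 and 6.5 CPM in 3 dph females and at 0.206, 0.0635 and 0.117 CPM in males (log2 fold change 6.00 ± 0.56, adjusted p = 1.27e-24, DESeq2). Nfu_g_1_004601 was at 6.23, 4.57 and 3.12 CPM in females, while the males had 2, 2 and 3 counts, which is at least 44.1-fold lower with 3 counts as the floor of each library (adjusted p = 3.6e-18). Nfu_g_1_021047 was at 10, 10.2 and 12.1 CPM in females and 2.75, 2.92 and 3.16 CPM in males (1.84 ± 0.22, adjusted p = 5.11e-16). In the ovary, these genes reached 652, 321 and 572 CPM.

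**Figure D2:**
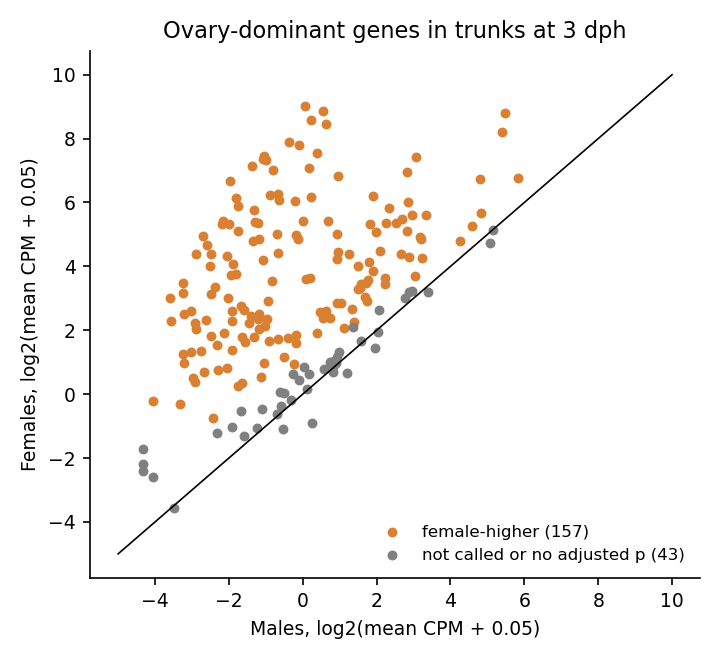
Mean CPM of each of the 200 genes in 3 female trunks (vertical axis) and 3 male trunks (horizontal axis) at 3 dph, both as log2(mean CPM + 0.05), with the line of equality. The 157 genes called female-higher by DESeq2 lie above the line, and the 43 others lie mostly along it.

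Of the 15 genes with a symbol, 11 were female-higher at 3 dph and 4 were not called. In the full list 78.5% were female-higher, and 13.7% of all genes tested. The symbols came from shortened sheets, so these 15 genes do not stand for the list. Among genes known from oocytes, *sybu* encodes syntabulin, a linker between cargo and microtubule motors that in zebrafish is localized at the vegetal pole of the oocyte and is needed to set up the dorsal side of the embryo. It was at 55.2, 59.2 and 57.6 CPM in 3 dph females and at 3.02, 6.38 and 5.47 CPM in males, with 585 CPM in the ovary and 1.62 CPM in the testis. The log2 fold change at 3 dph was 3.51 ± 0.22 (SE, adjusted p = 6.34e-58, DESeq2). *lsm14b* encodes a protein of messenger RNA granules, which in mouse oocytes acts in the control of stored RNA during meiotic maturation. It was at 22.2, 21.1 and 20 CPM in females and at 0.137, 0.127 and 0.117 CPM in males, a log2 fold change of 7.33 ± 0.47 (adjusted p = 1.22e-53). In the testis, *lsm14b* had 1 count against 4577 in the ovary, a ratio of 2070 with a counting interval of 372 to 81900.

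Several genes encode proteins that handle lipids and sugar chains of membranes. *GBGT1* (3 of 10) belongs to a family of glycosyltransferases that add a sugar to glycolipids, and the suffix marks it as one of several annotated copies, between which reads could be split. It was at 29.5, 26.8 and 31 CPM in 3 dph females and at 9.34, 9.37 and 8.75 CPM in males (log2 fold change 1.63 ± 0.18, adjusted p = 1.48e-18, DESeq2). *st6galnac*, named as a sialyltransferase, was at 49.4, 54.4 and 49.7 CPM in females and at 31.4, 23.5 and 30.5 CPM in males (0.80 ± 0.18, adjusted p = 8.64e-05). *gltpd1* encodes a transfer protein for ceramide-1-phosphate and was at 10.7, 11.2 and 10.6 CPM in females and 3.71, 5.11 and 5.20 CPM in males (1.18 ± 0.18, adjusted p = 1.67e-09). Both sexes were fully separated for these 3 genes. In contrast, *osbpl7*, of the family of oxysterol-binding proteins, was at 3.45, 3.16 and 2.82 CPM in females and 3.54, 3.21 and 2.11 CPM in males, which overlap (0.03 ± 0.29, adjusted p = 0.955).

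A further set encodes ion transporters, calcium-binding proteins and scaffolds. *slc24a4b*, a potassium-dependent sodium-calcium exchanger, was at 39.4, 42.3 and 39.5 CPM in 3 dph females and at 1.68, 5.02 and 3.83 CPM in males (log2 fold change 3.51 ± 0.27, adjusted p = 1.49e-35, DESeq2). *nbeaa* encodes neurobeachin, a scaffold of membrane traffic, and was at 15.6, 14.3 and 18.3 CPM against 2.85, 3.11 and 2.38 CPM (2.50 ± 0.23, adjusted p = 1.58e-25). *mctp2a*, whose protein carries C2 domains that bind calcium, was at 7.42, 6.97 and 7.11 CPM against 2.44, 1.84 and 1.76 CPM (1.78 ± 0.25, adjusted p = 1.76e-11). None of these 3 overlapped between the sexes. *scn1lab*, a voltage-gated sodium channel subunit, was at 1.53, 2.13 and 2.85 CPM in females and 0.481, 0.413 and 1.05 CPM in males, again without overlap (1.74 ± 0.46, adjusted p = 0.00165), but without female replicate 3 its adjusted p was 0.0561. *BAIAP2* (2 of 2), a linker of membrane curvature and actin, was at 4.53, 4.39 and 3.49 CPM against 1.54, 3.21 and 1.56 CPM (0.93 ± 0.31, adjusted p = 0.0192). This last call was lost in edgeR (adjusted p = 0.0515) and without any of 5 of the 6 libraries, all but male replicate 2, where the adjusted p lay between 0.0614 and 0.152.

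The remaining genes with a symbol were not called at 3 dph. *csf1b*, a growth factor of macrophages, was at 1.43, 1.48 and 1.74 CPM in females and 1.37, 1.87 and 1.95 CPM in males (log2 fold change -0.19 ± 0.32, adjusted p = 0.728, DESeq2). It had 413 counts in the ovary and 0 in the testis, which is at least 62.3-fold higher with 3 counts as the floor of the testis library. *glipr2l*, of a family of Golgi-associated proteins, was at 2.58, 1.82 and 1.37 CPM in females and 1.54, 2.54 and 1.37 CPM in males (0.04 ± 0.36, adjusted p = 0.962), so that these genes overlapped between the sexes. *fam84b* was at 5.96, 5.70 and 6.64 CPM in females and 3.40, 4.48 and 4.41 CPM in males, without overlap but short of the threshold (log2 fold change 0.55 ± 0.22, adjusted p = 0.0585, DESeq2), which it passed in edgeR (adjusted p = 0.0495) and without female replicate 2 (adjusted p = 0.041).

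**Figure D3:**
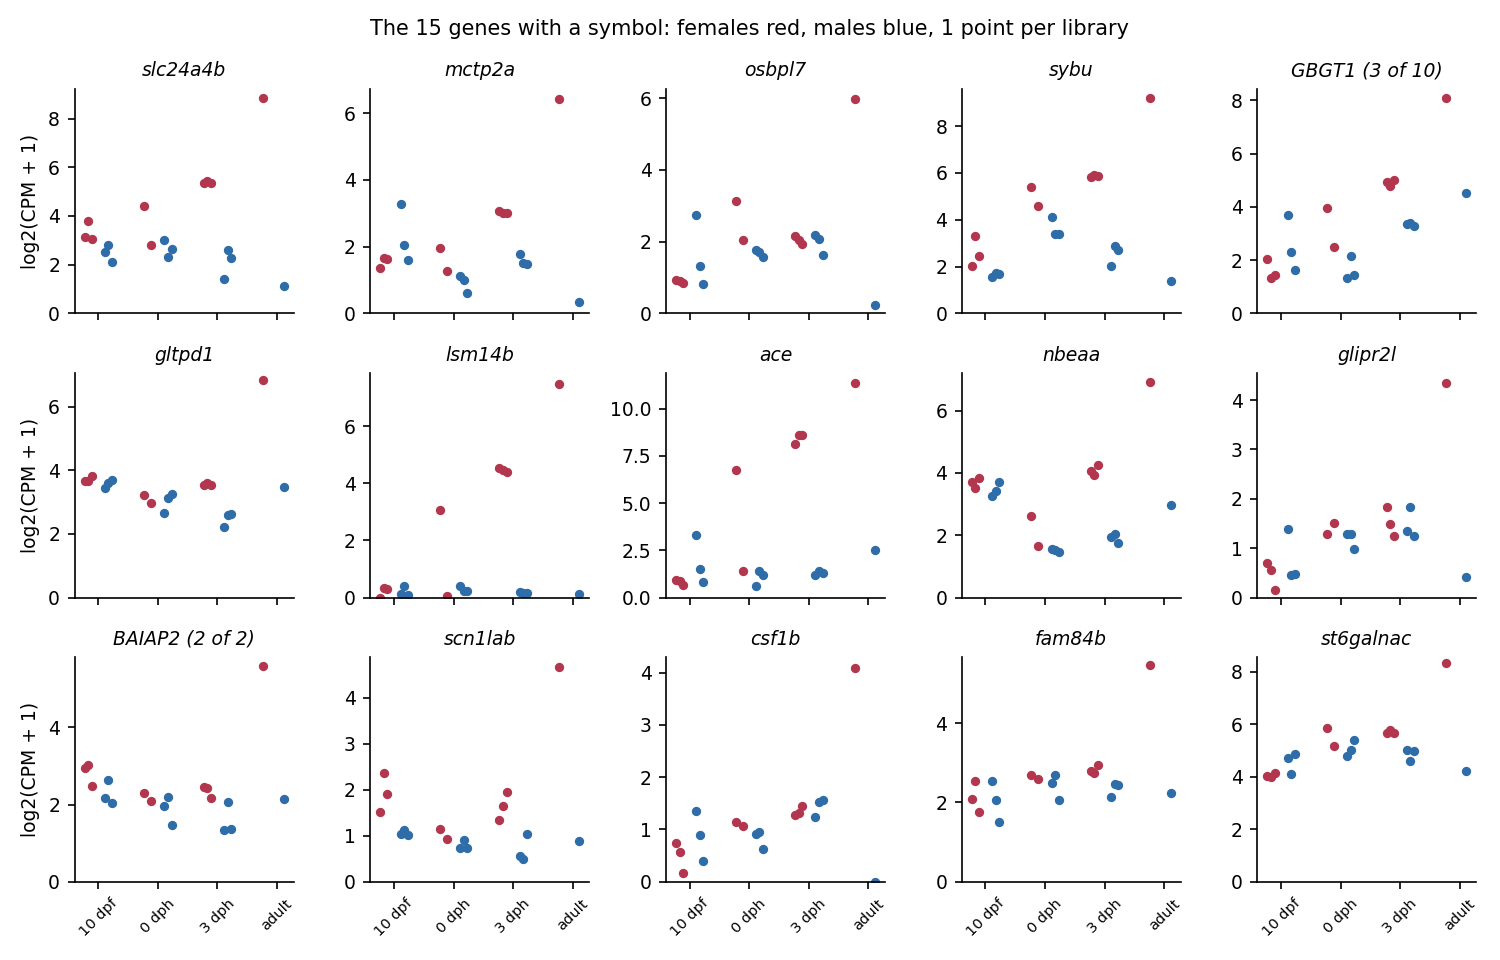
Level of the 15 ovary-dominant genes with a symbol as log2(CPM + 1) in each of the 19 libraries by stage (horizontal axis); females are red and males blue. The adult ovary is the highest point in each panel, and at 3 dph *sybu*, *lsm14b*, *ace* and *slc24a4b* show the widest gaps between the sexes.

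Not all ovary-dominant genes differed between the trunks. Of the 43 genes that were not called at 3 dph, 38 had an adjusted p and 5 had none. Their median level was 1.5 CPM in females and 1.08 CPM in males at 3 dph and 23.3 CPM in the ovary, compared with 145 CPM in the ovary for the 157 called genes. Nfu_g_1_008353, which ranked first, was at 2.26, 2.13 and 1.64 CPM in females and 1.85, 1.75 and 1.68 CPM in males at 3 dph (log2 fold change 0.14 ± 0.29, adjusted p = 0.783, DESeq2). Nfu_g_1_021514 was at 42.6, 32.7 and 29.4 CPM in females and 26.3, 51.2 and 29.2 CPM in males (-0.05 ± 0.25, adjusted p = 0.91). Nfu_g_1_020289 was at 28.4, 27.9 and 22.5 CPM in females and 37.8, 28.3 and 34.2 CPM in males (-0.41 ± 0.18, adjusted p = 0.106). Both were chosen after their values were seen, as the uncalled genes with the highest trunk levels. In the ovary, they reached 254 and 240 CPM.

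At hatching, the picture depended on a single library. DESeq2 called 24 of the 200 genes female-higher and 1 male-higher at 0 dph, where 2.11% and 1.2% of all 20503 genes with an adjusted p were called in these directions. The median log2 fold change over the 163 genes with an adjusted p was 1.07, also with groups at or under 3 counts set to that floor, against 0.01 over all genes tested. Since a gene could get an adjusted p through a single high female library, as Nfu_g_1_006373 did with 49 and 0 counts in females and 0, 1 and 1 in males, and the rest of the 200 had none, this median does not describe the full list. At 3 dph, 78.5% of the full list were female-higher, with or without a call at 0 dph, so a large overlap with the 0 dph calls was likely beforehand. All 24 genes were female-higher at 3 dph, as were 62.7% of all 432 genes female-higher at 0 dph, in libraries that share no sample with those of 0 dph. However, without female replicate 1, Nfu_g_1_016264 was called higher in females and Nfu_g_1_020289 higher in males (adjusted p = 4.08e-05), and no other gene, while without female replicate 2 these counts were 60 and 0. Leaving out male replicate 2 or 3 gave 9 and 13 female-higher genes, and edgeR called 1, where 0.13% of all genes it tested were female-higher. For the fits without a library, the shares over all genes were not computed, so these counts do not show a change particular to the list.

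**Figure D4:**
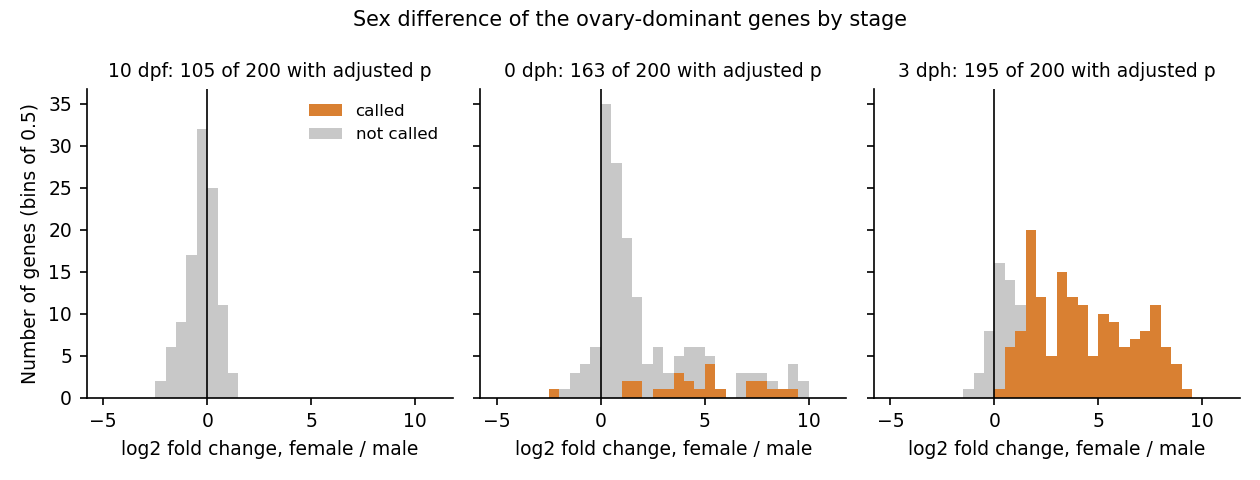
Log2 fold change, female over male, of the genes with an adjusted p at 10 dpf (105 of 200), 0 dph (163) and 3 dph (195), counted in bins of 0.5; orange marks genes called by DESeq2. The values centre near 0 at 10 dpf, reach far to the right for part of the genes at 0 dph, and lie to the right of 0 for most genes at 3 dph.

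The contrast between both hatchling females ran through nearly the whole list. Female replicate 1 exceeded female replicate 2 for 180 of the 200 genes and was lower for 19, whereas it was higher for 61.4% of all genes tested at 0 dph. Replicate 1 lay above all 3 male libraries for 167 of the genes and replicate 2 for 88, compared with 45.4% and 37.8% of all genes tested. Both female libraries together lay above all males for 79 of the 200 genes, against 25.8% of all genes tested. In replicate 1, the summed level was 4.53 times the male mean, and in replicate 2 1.17 times. Among the 24 called genes, both females exceeded all males for 21. The calls came from these same libraries, so this count gives them no further support. The share among all genes called female-higher at 0 dph was not computed. Genes of the mitotic cell cycle, from a separate list, summed to 355 and 368 CPM in the 0 dph females and 152 to 178 CPM in the males. Genes of meiosis and recombination summed to 128 and 141 CPM in the females and 71 to 76.5 CPM in the males. The 9 genes of oocytes and eggs, which include the members *sybu* and *lsm14b*, summed to 245 and 124 CPM in the females and 175 to 263 CPM in the males. At 0 dph, 3 of these 9 were female-higher and 1, *FOLR4*, was male-higher (log2 fold change -1.58, adjusted p = 6.69e-06, DESeq2). Over all genes tested, 2.11% and 1.2% were called in these directions. The part of these lists in the differences of the 200 genes was not tested.

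The named genes of 0 dph show both patterns. Nfu_g_1_010848 had 783 counts in female replicate 1 and 2 in replicate 2, against 1, 1 and 1 in males. Nfu_g_1_018168 had 1073 and 28 counts in females and 5, 3 and 1 in males. In both genes replicate 1 carried the difference, as in Nfu_g_1_017807 with 1735 and 5 counts against 3, 1 and 2, and in *lsm14b* with 129 and 1 against 6, 3 and 3. Nfu_g_1_016264, in contrast, had 43 and 42 counts in females and 1, 2 and 0 in males, and Nfu_g_1_014568 had 58 and 22 against 1, 2 and 0. With males at the floor of 3 counts per library, the female mean was at least 13.9-fold and at least 13.5-fold higher for these last genes. The adjusted p values in DESeq2 were 1.82e-06 for Nfu_g_1_010848, 0.00117 for Nfu_g_1_018168, 0.000114 for Nfu_g_1_016264 and 0.000621 for Nfu_g_1_014568. Without female replicate 1, only Nfu_g_1_016264 of these stayed called (adjusted p = 0.0366), and it was also the single gene called by edgeR (adjusted p = 0.0496).

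*sybu* had 717 and 458 counts in 0 dph females and 319, 162 and 174 in males, so that both sexes were separated (log2 fold change 1.23 ± 0.38, adjusted p = 0.0409 in DESeq2 and 0.203 in edgeR). The sexes did not overlap at 10 dpf either, with 3.08, 8.76 and 4.48 CPM in females and 1.91, 2.28 and 2.18 CPM in males. *sybu* was not called at that stage. The paper places *sybu* next to the sex-determining gene on the sex chromosomes and reports that testes express it only from the X. It also reports *sybu* transcripts from the Y in ovaries of XY fish with a mutated *gdf6Y*. In trunks of XX hatchlings with a *gdf6Y* transgene, the paper found less *sybu*. The part of the number of X chromosomes in the sex differences of *sybu* seen here was not tested. The male-higher gene was Nfu_g_1_020513, with 20 and 8 counts in females and 28, 56 and 61 in males (-2.02 ± 0.63, adjusted p = 0.0451 in DESeq2 and 0.227 in edgeR). Its call was lost without female replicate 1, without female replicate 2 and without male replicate 2 or 3 (adjusted p from 0.0526 to 0.745).

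**Figure D5:**
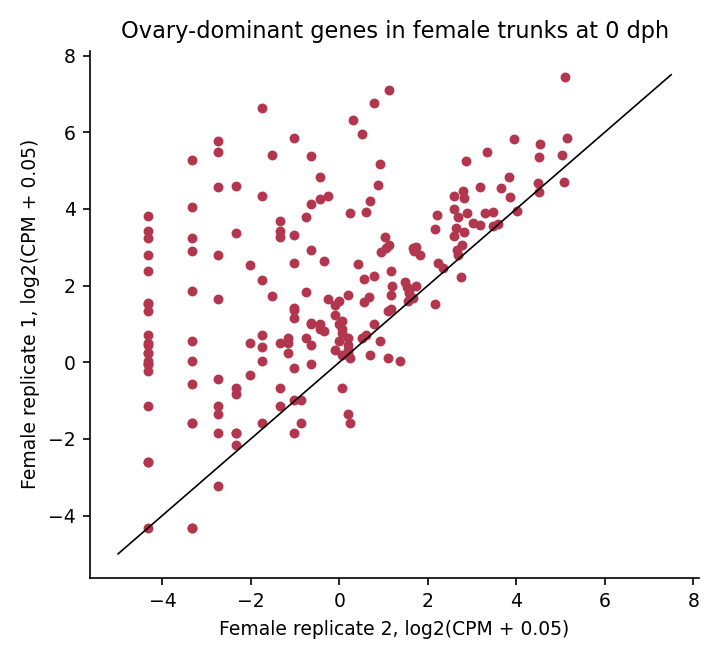
CPM of the 200 genes in female replicate 1 (vertical axis) against female replicate 2 (horizontal axis) at 0 dph, both as log2(CPM + 0.05), with the line of equality. Of the genes, 180 lie above the line, many of them at or near zero in replicate 2.

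In whole embryos at 10 dpf, no sex difference was detectable among the ovary-dominant genes at this depth and number of libraries. DESeq2 called 0 female-higher and 0 male-higher genes, as did edgeR, where 0.173% and 0.0544% of all genes tested by DESeq2 were called in these directions. The count of 0 is thus near the share over all genes and does not set these genes apart. At an unadjusted p under 0.05, 3 genes were female-higher and 12 male-higher in DESeq2, and 3 and 6 in edgeR. Only 105 of the 200 genes had an adjusted p, and their median log2 fold change was -0.27, against -0.08 over all genes tested. Libraries of equal replicate number correlated at this stage, although the labels name no pairs. A second fit with the replicate number as a further term also called 0 genes. Without male replicate 3, 4 genes were male-higher, namely *ace* (adjusted p = 0.0146), Nfu_g_1_004140 (adjusted p = 0.0308), *GBGT1* (3 of 10) (adjusted p = 0.0405) and Nfu_g_1_003639 (adjusted p = 0.0424), and without male replicate 2 *st6galnac* was (adjusted p = 0.0286). For *ace*, the 10 dpf counts were 18, 16 and 10 in females and 178, 30 and 12 in males, so that male replicate 1, the library that stood apart, held the high value. Without that library, the median log2 fold change of the list was 0.08 and 0 genes were called. The summed level of genes that mark other cell types, such as muscle and liver, was 8500 CPM in that library and 1240 to 2770 CPM in the other 10 dpf libraries, and its part in these values was not tested.

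Between 0 and 3 dph, 124 of the 200 genes rose and 2 fell in females, in a fit over the 11 trunk libraries in which 20.4% and 17.7% of all genes tested rose and fell. In males, 40 rose and 22 fell, where 21.9% and 22.3% of all genes did. The median log2 fold change, 3 over 0 dph, was 2.22 in females (2.21 with groups at or under 3 counts set to that floor) and 0.58 in males (0.29 with that floor), against 0.02 and -0.02 over all genes tested. The genes that fell in females were Nfu_g_1_021167 (-1.03 ± 0.25, adjusted p = 0.000268, DESeq2) and Nfu_g_1_006720 (-1.57 ± 0.53, adjusted p = 0.0117). Nfu_g_1_015063 is a member that rose in both sexes: it was at 52 and 23 CPM in 0 dph females and 16.9, 18.2 and 19.1 CPM in males, and at 268, 295 and 319 CPM in 3 dph females and 38.7, 43.8 and 43 CPM in males. Its log2 fold change from 0 to 3 dph was 3.25 ± 0.27 in females (adjusted p = 3.4e-30) and 1.28 ± 0.25 in males (adjusted p = 1.2e-06).

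Of the 195 genes with an adjusted p in both sexes, 32 rose in both, where 13.6% of all such genes did, a share close to that of the list. A rise in females with a fall in males was called for 12 of them, where 0.61% of all such genes showed it. The genes that rose in both had a median of 2.56 CPM in 3 dph males and 19 CPM in 3 dph females. Some of them were traces in males beside very high levels in females. Of 16 genes at 50 CPM or more in 3 dph females whose male libraries at 10 dpf and 0 dph all lay under 1 CPM, 7 were called higher at 3 than at 0 dph in males, and the male level at 3 dph of the 16 was 0.191 to 1.23% of the female level, with a median of 0.302%. Whether reads carried over between libraries have a part in these male traces was not tested.

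A direct test of the change in the sex difference from 0 to 3 dph gave 52 of the 200 genes with a shift towards females and 0 with a shift towards males, where 6.25% and 2.48% of all genes tested shifted. At an unadjusted p under 0.05, 3 genes shifted towards males in DESeq2, and edgeR called 30 genes shifted towards females and 0 towards males, with 4 towards males unadjusted. Without female 0 dph replicate 1, the library with the higher levels, 109 genes were called. The share over all genes was not computed for the fit without that library. For the 3 genes with the smallest adjusted p in the full fit, females rose and males fell from 0 to 3 dph, each past the threshold. Nfu_g_1_019573 was at 25.4 and 22.4 CPM in 0 dph females and 22.8, 27.8 and 22.1 CPM in males, and at 32.9, 35.3 and 35.3 CPM in 3 dph females and 6.59, 7.84 and 6.76 CPM in males. The sexes overlapped at hatching and were far apart 3 days later, a shift of 2.48 ± 0.22 on the log2 scale (adjusted p = 7.38e-26, DESeq2). Nfu_g_1_021903 went from 16 and 5.94 CPM to 40.9, 44.8 and 43.5 CPM in females and from 4.41, 2.48 and 3.41 CPM to 1.03, 0.953 and 0.898 CPM in males, a shift of 4.02 ± 0.50 (adjusted p = 2.07e-12). Nfu_g_1_002669 went from 0.4 and 0.346 CPM to 3.34, 2.99 and 3.82 CPM in females and from 1.23, 1.04 and 0.487 CPM to 0.309, 0.476 and 0.273 CPM in males, a shift of 4.74 ± 0.70 (adjusted p = 7.14e-09).

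Among genes with a symbol, *sybu* and *gltpd1* followed the same course. *sybu* rose from 0 to 3 dph in females (1.12 ± 0.32, adjusted p = 0.00272, DESeq2) and fell in males (-1.19 ± 0.30, adjusted p = 0.000351), and its sex difference shifted by 2.31 ± 0.44 (adjusted p = 1.79e-05). *gltpd1* also rose in females (0.78 ± 0.23, adjusted p = 0.00399) and fell in males (-0.57 ± 0.22, adjusted p = 0.0219). For *slc24a4b* and *nbeaa*, which rose in females, the shifts were 2.50 ± 0.61 (adjusted p = 0.00162, DESeq2, but 0.0509 in edgeR) and 1.74 ± 0.46 (adjusted p = 0.00411). In contrast, *GBGT1* (3 of 10) rose in both sexes, by 1.91 ± 0.41 in females and 2.16 ± 0.38 in males, and a shift was not detected (-0.25 ± 0.56, adjusted p = 0.864).

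Gene lists of related functions, matched by symbol, put the 200 genes in context. Their counts at 3 dph are to be read against the 13.7% female-higher and 5.19% male-higher over all genes tested. Of 9 genes of oocytes and eggs, 6 were female-higher and 1 male-higher. Besides the members *sybu* and *lsm14b*, the female-higher ones were *pabpc1l*, *tdrd6*, *taf4b* and *CCNJ*, with log2 fold changes of 5.28, 3.34, 4.19 and 3.03. These 4 genes were not ovary-dominant, since the testis held them too, as for *pabpc1l*, the poly(A)-binding protein of oocytes and embryos, with 385 CPM in the ovary and 334 CPM in the testis. The male-higher gene was *FOLR4* (-1.03, adjusted p = 0.00666, DESeq2). Of 12 tested genes of meiosis and recombination, 6 were female-higher and 0 male-higher in DESeq2, among them *rec8*, a meiotic cohesin subunit (3.50, adjusted p = 5.57e-18), and none of the list was among the 200. Of 21 genes of the mitotic cell cycle, 7 were female-higher and 1 male-higher. Of 16 tested genes of testis and sperm, 2 were female-higher, *brdt* and *tpte*, a share near that over all genes, and of 2 genes of follicle somatic cells, 0 were called.

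Of 27 genes that mark blood, muscle, liver, nerve, cartilage, skin and gut, 1 was female-higher and 4 were male-higher at 3 dph, and none was among the 200. Their summed level was 19500 to 20000 CPM in females and 19800 to 26600 CPM in males, so the ranges overlapped. At 0 dph, it was 7820 CPM in female replicate 1, 11500 CPM in female replicate 2 and 3570 to 7360 CPM in males. In the ovary, it was 3780 CPM, of which a copy of *krt5* (Nfu_g_1_000844) made up 3320 CPM, and a second gene annotated *hbbe1.1* and *gad1b* had 0 counts. That *krt5* copy was the female-higher gene of the list, with a log2 fold change of 9.54 at 3 dph and 85823 counts in the ovary against 70 in the testis. The part of other cell types in the differences of the 200 genes was not tested.

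The 189 genes that passed the thresholds but ranked below the 200 held a similar share of called genes at 3 dph, with 149 female-higher (78.8%) and 0 male-higher, but a smaller median log2 fold change of 1.91 against 3.30. The ranking that split both sets used the early group means, so the gap between these medians is not independent of it. At 0 dph, 41 of their 181 genes with an adjusted p were female-higher (22.7%), against 24 of 163 among the 200 genes (14.7%). Over all genes tested at 0 dph, the share was 2.11%. The mirrored rule for the testis was passed by 733 genes. Of the first 200 of these, 163 had an adjusted p at 3 dph, with a median log2 fold change of 0.04. Of the 163, 19 were female-higher (11.7%) and 2 male-higher (1.23%), where 13.7% and 5.19% of all genes tested were. The female-higher share was thus near that over all genes.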

How the data were processed

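RNA-seq of 19 libraries of *N. furzeri* (strain GRZ) was used. Sex, age, tissue and replicate number came from the sample labels, and 0 columns were left unmapped. The authors' processing notes name bcl2fastq (version 1.8.4) and STAR, and the authors filtered the reads, mapped them to the reference genome and counted them per gene with the summarizeOverlaps function. The deposited values are raw counts without normalisation. The library kit named in the labels (TruSeq RNA) does not mark strand, so reads of overlapping genes on opposite strands cannot be told apart. The treatment of near-identical genes in counting was not given in the sources used here, so counts of gene copies are uncertain. Reads carry no molecular identifiers, and intervals and floors cover counting error only.

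CPM were computed from library totals. Median-of-ratios scaling in place of totals shifted all ratios of ovary to testis by 0.28 on the log2 scale, and those of females to males by -0.19 at 0 dph and -0.15 at 3 dph. Each stage was tested on its own in R (version 4.3.3) using DESeq2 (version 1.42.0) with sex as the term, and the changes from 0 to 3 dph and their interaction with sex in 1 fit over the trunk libraries. Genes with a Benjamini-Hochberg adjusted p under 0.05 over all genes tested were called. Ratios of ovary to testis, with 1 library each, carry exact binomial counting intervals and no test. Where no library of a group exceeded 3 counts, that number served as the floor of each of its libraries, and folds against it are lower bounds. edgeR (version 4.0.16) and the other alternatives are given in the closing section. The scripts were tested on simulated counts, in which DESeq2 made more false calls than its threshold promises and edgeR fewer than DESeq2.

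The 200 genes and the gene lists were chosen with earlier results of these data known. Symbols came from shortened sheets of the study's supplement, which hold 2671 of the genes, mostly the first by identifier and those with the smallest p at 10 dpf. The RefSeq gene table matched 0 identifiers, and neither positions nor sequences were used here. Of the symbols listed, 9 of 40 for oocytes and eggs, 13 of 25 for meiosis and recombination, 18 of 23 for the mitotic cell cycle, 2 of 17 for follicle somatic cells, 17 of 21 for testis and sperm and 23 of 23 for other trunk cell types were matched.

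The genes named are the 6 with the highest ovary CPM, the first 4 by rank, the 15 with a gene symbol, the called genes with the smallest adjusted p (up to 5 female-higher and 3 male-higher at 3 dph, 4 and 2 at 0 dph, 2 and 2 at 10 dpf, 3 for the interaction) and those at the end of the list. Genes outside this rule are exceptions given with their contrast. Whether equal replicate numbers pair the libraries was checked for each number by the correlation over genes of both libraries after subtraction of the group mean. It was 0.413, 0.176 and 0.519 at 10 dpf, all above 0.1, and there the fit with the replicate number as a further term served as a second fit. The other 10 dpf values given come from fits with sex as the only term.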

Additional observations from a re-analysis of the deposited data

Results flagged for a closer look

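The sex difference of 52 of the 200 ovary-dominant genes differed between 0 and 3 dph by the test of the interaction (DESeq2, adjusted p under 0.05), each time with a shift towards females. The genes with the smallest adjusted p were Nfu_g_1_019573, Nfu_g_1_021903 and Nfu_g_1_002669, whose sex differences shifted by 2.48, 4.02 and 4.74 on the log2 scale. No group held more than 3 libraries, so single libraries were not screened as outliers.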

How the results depend on the processing

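At 3 dph, the count of called genes kept to 152 to 159 of 200, including 152 to 158 when each library was left out in turn, 152 with the replicate block, 157 in edgeR, and 155 after random removal of counts at 3 dph down to the average depth of 0 dph, a choice made after seeing the data. At 0 dph, 25 genes were called in both directions together, but 1 in edgeR, 7 with the replicate block and between 2 and 60 when a library was left out. For the change of the sex difference, 52 became 30 in edgeR, 50 with the replicate block 45 with that removal, and between 40 and 109 when a library was left out. At 10 dpf, 0 genes became between 0 and 4 when a library was left out. The counts of genes changed from 0 to 3 dph lay between 98 and 138 in females (126 as reported) and between 42 and 85 in males (62 as reported) when a library was left out. Where a group was left with 1 library, that library is assumed to vary like the others, and the cause of these differences was not tested. The shares over all genes were not computed for the fits without a library. Of the 2 genes whose sign turned at 3 dph when a library was left out, neither called, *osbpl7* lay between -0.17 and 0.26 and *glipr2l* between -0.24 and 0.31. Over all alternatives for the single genes named, 463 values kept direction and call, 25 lost the call, 3 gained it and 5 turned sign. Other ways to choose the list kept 153 (a pseudocount of 0.1), 177 (median-of-ratios scaling), 180 (at least 500 ovary counts) and 184 (highest single early library) of the 200 genes. Equal replicate numbers did not deviate together at 0 dph (correlations -0.0877 and -0.196) or throughout at 3 dph (-0.174, 0.187 and 0.00226, where 1 of 6 libraries correlated best with its own number), so the block is not a pairing there. The adult gonads have 1 library each, which gives no spread between fish.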
